A study of Mus musculus with 12 samples.

Results

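The Trbj1 cluster, the 6 joining segments Trbj1-1 to Trbj1-6, written J1-1 to J1-6 here, of the mouse T cell receptor β-chain locus, was examined in the β-chain repertoire of CD8+ T cells. Its members were every β-chain clonotype whose joining segment was called as one of these 6. Of 12 Trbj segments listed in the repertoire, 6 belonged to the cluster and 6 to the neighbouring Trbj2 cluster. They took 303917 of 968766 β-chain clonotypes and 572374 of 1791590 unique molecular identifiers (UMIs, the tags that mark single cDNA molecules). A clonotype here is 1 combination of V segment, J segment and CDR3 nucleotide sequence in 1 library. One further clonotype, in the tumor-draining lymph node (tdLN) of the control group, was called as J1-6 and J2-2 alike and was counted in totals only. No clonotype was listed with J1-7.

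Wild-type C57BL/6 mice bearing MTCQ1-2 tumors, a line from a mouse tongue carcinoma that serves as a model of head and neck cancer, received control IgG, IL-10-Fc (interleukin-10 fused to an antibody Fc), anti-CSF1R (an antibody that blocks the colony-stimulating factor-1 receptor of macrophages) or BF10, a fusion of IL-10 to such an antibody. Per the labels, every agent was given at 30 mg/kg in 3 doses at an interval of 3 days, although the study's methods state the dose by agent. CD8+ T cells were collected with magnetic beads from tumor, spleen and tdLN, which gave 12 libraries, 1 for each tissue and treatment, each made from the mixed RNA of 3 mice. By the methods, mice were bought at 6 to 8 weeks of age. Whether the 3 tissues of a treatment came from the same mice was not given in the sources used here. No group has a replicate library, so an interval printed below covers counting error only, and a test across libraries measures their spread, not that between mice.

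A β chain is built when a Trbv segment, a Trbd segment and a Trbj segment are cut out and joined in a developing thymocyte. The joint, with bases trimmed from the segment ends and others added, encodes the CDR3, the loop that contacts the presented peptide. The mouse locus holds a pair of D-J-C units in tandem: Trbd1 with the Trbj1 segments and Trbc1, then Trbd2 with the Trbj2 segments and Trbc2. Because Trbd2 lies downstream of the Trbj1 segments, they are joined mostly to Trbd1, whereas the Trbj2 segments can take either D segment.

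The 6 members lie in order on the plus strand of chromosome 6 of GRCm38, the assembly that the submitters' notes name as mm10: J1-1 at chr6:41533864-41533911, J1-2 at chr6:41534001-41534048, J1-3 at chr6:41534323-41534372, J1-4 at chr6:41534811-41534861, J1-5 at chr6:41535084-41535133 and J1-6 at chr6:41535554-41535606. Each is preceded by a recombination signal of 28 bases, namely a nonamer, a spacer of 12 bases and a heptamer, at which the RAG recombinase cuts. The germline letters are shown because they set both the cutting site and the end of the CDR3. Each line, from RefSeq, runs 5′ to 3′ from the nonamer to the end of the segment, and capitals mark the J bases that reach the end of the CDR3.

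Trbj1-1: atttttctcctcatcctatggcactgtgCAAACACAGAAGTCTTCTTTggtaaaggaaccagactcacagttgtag
Trbj1-2: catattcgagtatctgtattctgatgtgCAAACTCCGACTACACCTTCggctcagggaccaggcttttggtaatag
Trbj1-3: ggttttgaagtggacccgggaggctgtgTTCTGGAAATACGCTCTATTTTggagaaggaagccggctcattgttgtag
Trbj1-4: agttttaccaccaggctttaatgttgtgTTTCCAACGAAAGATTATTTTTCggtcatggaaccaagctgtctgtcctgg
Trbj1-5: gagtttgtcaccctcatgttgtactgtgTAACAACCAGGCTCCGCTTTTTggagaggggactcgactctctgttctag
Trbj1-6: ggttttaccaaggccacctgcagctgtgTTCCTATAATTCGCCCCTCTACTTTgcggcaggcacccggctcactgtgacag

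The J bases that can enter the CDR3 numbered 20 in J1-1 and J1-2, 22 in J1-3 and J1-5, 23 in J1-4 and 25 in J1-6. The heptamers were CACTGTG in J1-1, TGATGTG in J1-2, GGCTGTG in J1-3, TGTTGTG in J1-4, TACTGTG in J1-5 and AGCTGTG in J1-6. The consensus CACTGTG was matched at all 7 positions by J1-1, the only one of the 12 Trbj segments with that heptamer on the coding strand, and at 4 to 6 positions by the other members. The D segments are shown with the base at which their letters first differ in capitals.

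Trbd1: gggacAgggggc
Trbd2: gggacTgggggggc

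Depth was 32784 to 210616 β-chain UMIs and 2493 to 151480 β-chain clonotypes per library. In 2 libraries, tdLN under anti-CSF1R and under BF10, only 10.4% and 8.26% of β-chain UMIs had at least 7 reads, against 35.3% to 69.6% in the other 10, and they held 0.312 and 0.274 α-chain UMIs per β-chain UMI, against 0.672 to 0.816. Within each of these 2 libraries the share of UMIs with at least 7 reads lay between 9.95% and 11.4% and between 8.15% and 8.999% for the 6 members. The tumor libraries of control IgG and anti-CSF1R stood apart in holding the fewest clonotypes, 9466 and 2493. The αβ T cell label was checked by chain: γ- and δ-chain UMIs were 0.677% to 8.93% of all UMIs. By tissue they were 0.677% to 2.30% in spleen, 4.96% to 6.34% in tdLN and 0.873% to 8.93% in tumor. The titles of the tumor and spleen libraries name CD8, and those of the tdLN libraries do not. CD8 itself was not measured.

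Among the members, J1-1 was used most and J1-5 and J1-6 least. In spleen, where the 4 libraries were most alike, J1-1 joined 9.08% of β-chain clonotypes under control IgG, 8.46% under IL-10-Fc, 8.79% under anti-CSF1R and 8.61% under BF10. J1-4 followed with 6.26%, 5.89%, 5.91% and 6.07%, and J1-2 with 6.14%, 5.69%, 5.84% and 6.08% in the same order. The ranges of J1-4 and J1-2 overlapped, and within a library J1-4 was above J1-2 except under BF10. J1-3 had 4.42%, 4.06%, 4.33% and 4.33%, J1-5 2.69%, 2.54%, 2.71% and 2.67%, and J1-6 2.67%, 2.31%, 2.53% and 2.55%. The ranges of J1-5 and J1-6 overlapped too, although J1-5 was above J1-6 within each spleen library, and below it within each tdLN library. All other neighbours in the order were separate in spleen. Usage did not simply follow the map, since J1-4, which lies farther from Trbd1 than J1-3, was used more than the latter in every spleen library.

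Together the members made up 31.3%, 28.9%, 30.1% and 30.3% of spleen clonotypes under control IgG, IL-10-Fc, anti-CSF1R and BF10. In tdLN the values were 31.3%, 30.4%, 33.5% and 34.2%, and in tumor 33.6%, 29.1%, 34.9% and 30.1%. The Wilson 95% intervals were narrow outside the smallest library: 30.9% to 31.6% in spleen under control IgG, but 33.0% to 36.8% in the anti-CSF1R tumor.

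**Figure D1:**
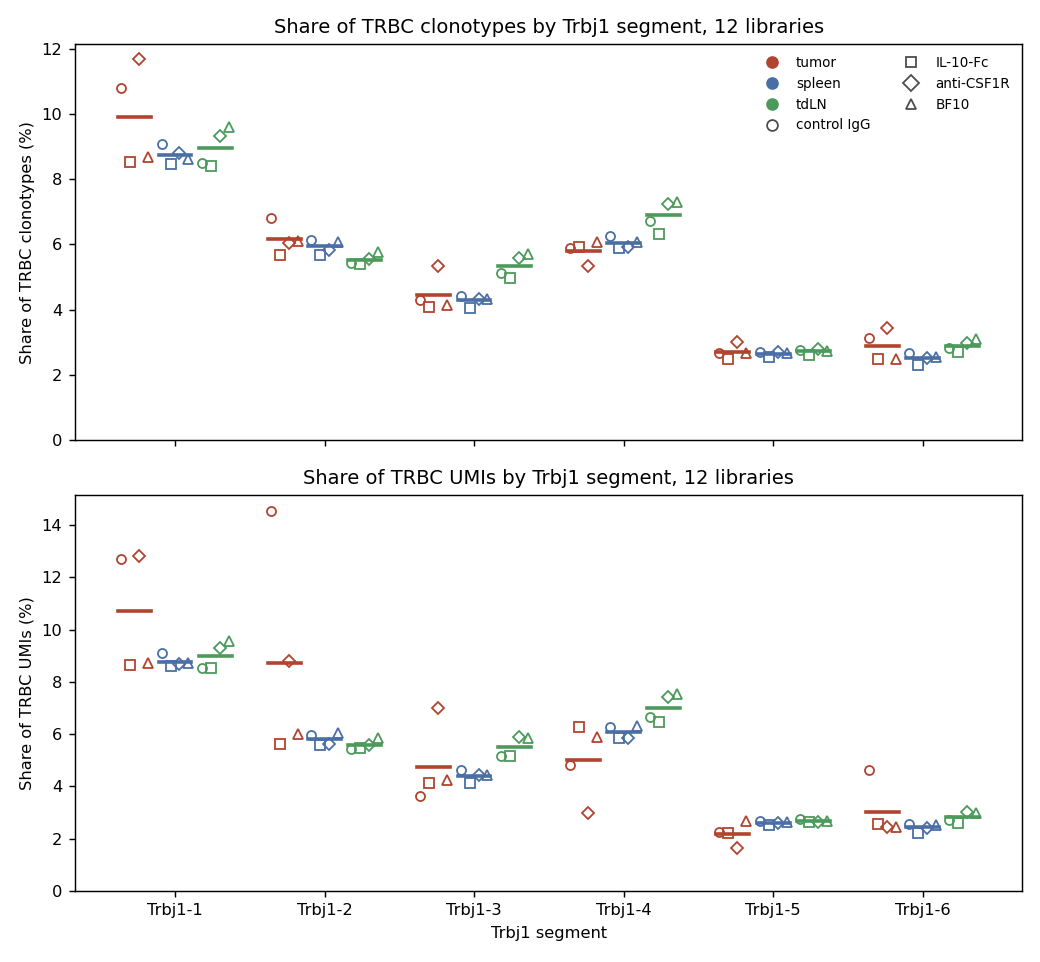
Share of β-chain (TRBC) clonotypes (top, %) and UMIs (bottom, %) joined to each Trbj1 segment in the 12 libraries. Colours mark tissue, symbols mark treatment, and bars are means of the 4 libraries of a tissue. In the lower panel J1-2 reaches 14.5% in the control IgG tumor, and J1-3 and J1-4 are higher in tdLN than in spleen in both panels.

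The comparison of tissues asked whether the peripheral repertoire and the tumor repertoire draw on the same J segments. J1-3 and J1-4 took more clonotypes in tdLN than in spleen under all 4 treatments. J1-3 joined 5.13% of tdLN clonotypes under control IgG, 4.97% under IL-10-Fc, 5.58% under anti-CSF1R and 5.70% under BF10, each above every spleen library. The mean was 5.34% ± 0.349 (SD, n = 4) in tdLN and 4.29% ± 0.156 (SD, n = 4) in spleen, which is 1.25 times the spleen level. J1-4 joined 6.73%, 6.32%, 7.24% and 7.29% of tdLN clonotypes in the same order, all above the highest spleen library. Its mean was 6.89% ± 0.459 (SD, n = 4) against 6.03% ± 0.171 (SD, n = 4), or 1.14 times the spleen level. J1-2 went the other way, with 5.42%, 5.38%, 5.57% and 5.75% in tdLN, below the spleen library of the same treatment in 4 of 4.

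The remaining members differed less. J1-6 was higher in tdLN than in spleen in 4 of 4 treatments, by 0.379 percentage points on average, and J1-5 in 4 of 4 by only 0.0682. J1-1 had no single direction, with differences of -0.598 and -0.0463 points under control IgG and IL-10-Fc and of 0.520 and 0.985 points under anti-CSF1R and BF10. Trbj2 segments differed too. The largest mean difference of any Trbj segment was that of J2-1, -1.56 points, lower in tdLN in 4 of 4. J2-2 and J2-5 were also lower in 4 of 4, and J2-3 was higher in 4 of 4.

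Tumor clonotype shares did not move together across treatments. J1-1 joined 10.8% of clonotypes in the control IgG tumor and 11.7% in the anti-CSF1R tumor, above all 10 other libraries, but 8.51% under IL-10-Fc and 8.68% under BF10, beside 8.46% and 8.61% in the spleen of the same treatments. J1-3 joined 4.30%, 4.08%, 5.33% and 4.14% under control IgG, IL-10-Fc, anti-CSF1R and BF10, and J1-4 5.89%, 5.91%, 5.33% and 6.06%. Under IL-10-Fc and BF10, where the tumor libraries held the most clonotypes, the tumor thus lay near spleen and below tdLN for both of these members. J1-2 reached 6.80% under control IgG, its highest value in any library, and J1-6 3.45% under anti-CSF1R, likewise its highest. In the control IgG and anti-CSF1R tumors, 9.46% and 17.4% of Trbj1 clonotypes were close to a larger one, against at most 0.375% elsewhere. Close meant 1 base from a clonotype of the same V and J with at least 10 times the UMIs. Member shares without these are not given here.

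No member passed the tissue test after adjustment. In an exact permutation test of tissue labels within treatment, adjusted by Benjamini-Hochberg over the 12 Trbj segments, 0 of 6 members passed at 0.05 for clonotype shares, beside 0% of all segments tested. An unadjusted p under 0.05 was found for 3 of 6 members and 5 of all 12 segments, the smallest, 0.00463 in the exact permutation test, being that of a Trbj2 segment, J2-3. J1-2 and J1-4 had exact permutation p = 0.00926 and p = 0.0139 (both adjusted p = 0.0556), and J1-3 had exact permutation p = 0.0324 (adjusted p = 0.0778). The design bounds this test: when 1 tissue alone stands apart, exchanging the other 2 leaves p near 0.037, and 4 pairs of tdLN and spleen cannot go below a two-sided exact p of 0.125. J1-4 passed this exact permutation test when clonotypes were compared at equal UMI totals, as amino acid clonotypes or at the same Trbv composition (adjusted p = 0.0278 in each) and with at least 2 UMIs (adjusted p = 0.0370). J1-2 passed in the first 3 of these settings, and J1-3 in none of them. Of all 12 segments, 4 passed in each of the first 3 settings and 3 with at least 2 UMIs. The Trbj2 segments J2-1 and J2-3 were among them each time.

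The excess of J1-3 and J1-4 in tdLN was larger in the 2 libraries with few reads per UMI. Over control IgG and IL-10-Fc alone it was 0.807 points for J1-3 and 0.447 for J1-4, and over anti-CSF1R and BF10 it was 1.31 and 1.27. The whole cluster behaved likewise, with an excess of 0.0699 points under control IgG, 1.44 under IL-10-Fc, 3.34 under anti-CSF1R and 3.85 under BF10. With UMIs of at least 7 reads only, the mean excess over all treatments was 1.43 points for J1-3 and 1.18 for J1-4. At the minimum of 3 reads it was 1.06 and 0.860. The parts of read depth and of γ- and δ-chain content in these differences were not tested. With every library set to the same Trbv composition, the mean excess was 1.06 points for J1-3 and 0.860 for J1-4, as large as without it.

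**Figure D2:**
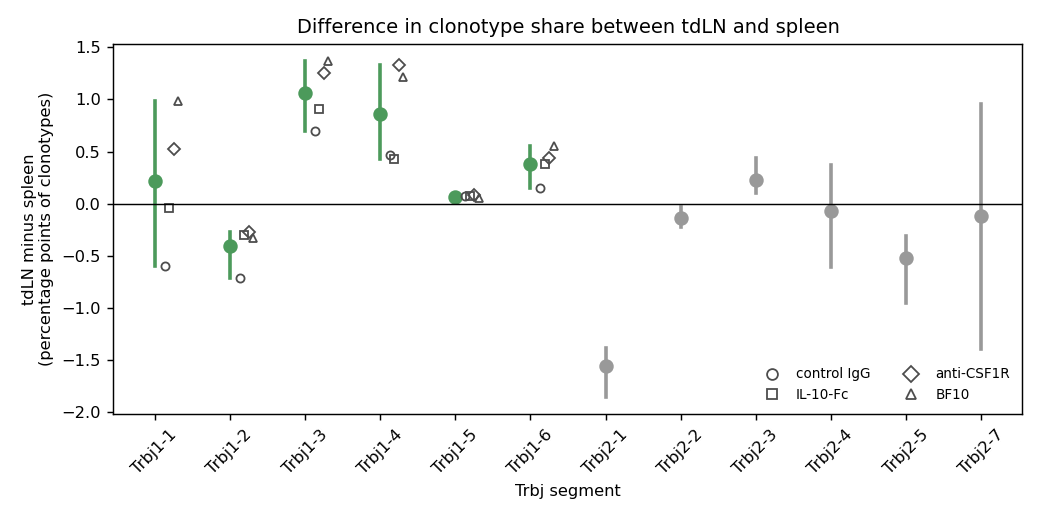
Difference in clonotype share between tdLN and spleen of the same treatment (percentage points) for the 12 Trbj segments. Filled circles are means of 4 treatments, lines span the lowest to the highest treatment, Trbj1 members are green and Trbj2 segments grey, and open symbols give each treatment for the members. J1-3, J1-4, J1-5 and J1-6 lie above 0 and J1-2 below 0 under all 4 treatments.

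UMI shares, which weight a clonotype by its transcripts, were close to clonotype shares in spleen and tdLN and departed from them in tumor. More cells and more mRNA per cell cannot be told apart in these counts. Members held 42.6% of β-chain UMIs in the control IgG tumor (Wilson 95% interval 42.3% to 42.9%), 29.5% under IL-10-Fc, 35.7% under anti-CSF1R (35.1% to 36.2%) and 30.0% under BF10. The control IgG and anti-CSF1R tumors were thus above all 8 spleen and tdLN libraries, which held 28.9% to 34.5%. Without clonotypes that reached 0.1% of UMIs, the values were 32.3%, 29.3%, 32.7% and 30.0%.

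The members departed one by one. J1-2 held 14.5%, 5.62%, 8.82% and 5.99% of tumor UMIs under control IgG, IL-10-Fc, anti-CSF1R and BF10, against 5.42% to 6.03% in spleen and tdLN. J1-1 held 12.7%, 8.66%, 12.8% and 8.74%, and J1-3 3.63%, 4.15%, 6.98% and 4.25%. J1-4 held 4.84%, 6.26%, 2.98% and 5.90%, so that its lowest value fell in the library where J1-3 was highest. J1-6 reached 4.64% under control IgG and 2.43% to 2.56% in the other tumors, and J1-5 stayed between 1.63% and 2.67% in all 4 tumors. For UMI shares 0 of 6 members passed the exact tissue test, beside 0% of all segments. An unadjusted p under 0.05 was found for 1 of 6 members, J1-4 (exact permutation p = 0.0231, adjusted p = 0.111), and for 3 of all 12 segments. Without the clonotypes of 0.1% or more it passed the same exact permutation test (adjusted p = 0.0370). So did the Trbj2 segments J2-1 and J2-3, which made 3 of all 12 segments.

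Between treatments, 1 of 6 members passed for clonotype shares, beside 8.33% of all segments. This was J1-5, with 2.67%, 2.48%, 3.01% and 2.67% in tumor under control IgG, IL-10-Fc, anti-CSF1R and BF10, then 2.69%, 2.54%, 2.71% and 2.67% in spleen and 2.76%, 2.61%, 2.79% and 2.72% in tdLN. It was lowest under IL-10-Fc and highest under anti-CSF1R in 3 of 3 tissues (exact permutation of treatment labels within tissue, p = 0.00174, the smallest this design gives, adjusted p = 0.0208). With 1 library per treatment and tissue, the treatment and the mice that received it cannot be told apart. The difference in means was small, 2.84% against 2.55%, and the call was lost with UMIs of at least 7 reads, with clonotypes of at least 2 UMIs and at equal UMI totals. With any 1 treatment left out, 0 of 6 members passed and the smallest p possible was 0.0278. For UMI shares 0 of 6 members passed, beside 8.33% of all segments, and 0 of 6 had an unadjusted p under 0.05.

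CDR3 length differed between members. Mean lengths over 12 libraries rose from 13.3 ± 0.163 amino acids (SD, n = 12) for J1-1 and 13.6 ± 0.125 for J1-2 to 13.9 ± 0.0872 for J1-5, 14.3 ± 0.211 for J1-3, 14.3 ± 0.0936 for J1-4 and 14.4 ± 0.104 for J1-6. The last 3 overlapped within their SD, although J1-6 was above J1-4 within every library but the control IgG tumor. The usual last 5 residues were TEVFF in 85.0% of J1-1 clonotypes, SDYTF in 96.7% for J1-2, NTLYF in 97.4% for J1-3, ERLFF in 98.6% for J1-4, QAPLF in 93.8% for J1-5 and SPLYF in 98.1% for J1-6.

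Length tracked the germline letters only in part, and members lost different numbers of bases at the joint. Bases missing from the J end were counted as germline CDR3 bases outside the longest exact match at the 3′ end, so a sequencing error in J also counts. In the 8 spleen and tdLN libraries, J1-6, the longest segment, lacked most (4.32 ± 0.0842 bases, SD, n = 8) and J1-3 least (1.52 ± 0.0386). J1-2 lacked 1.80, J1-1 2.88, J1-5 2.98 and J1-4 3.07. With the clonotypes of all 12 libraries pooled, J1-3 was intact in 53.0% and J1-6 in 20.3%. Over the 8 spleen and tdLN libraries the ranges of J1-2, J1-3 and J1-6 met no other member's. Those of J1-1, J1-4 and J1-5 lay close together, from 2.77 to 3.15.

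Mean lengths of 5 of 6 members, J1-2 to J1-6, were lower in tdLN than in spleen in 4 of 4 treatments. The mean difference was -0.105 amino acids for J1-4, from 14.32 in spleen to 14.22 in tdLN, and -0.125 for J1-5, from 13.94 to 13.82. J1-1 was higher in tdLN in 3 of 4. Trbj2 segments showed it too: 9 of all 12 segments were lower in 4 of 4, with the largest mean difference, -0.184 amino acids, in J2-3. In the exact tissue test 0 of 6 members passed, beside 0% of all segments, and 2 of 6 members and 3 of all 12 segments had an unadjusted p under 0.05, the members being J1-4 (exact permutation p = 0.0139) and J1-5 (exact permutation p = 0.0231), both with adjusted p = 0.139.

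The largest departures in length were in tumor. J1-1 averaged 13.6 residues under control IgG and 12.8 under anti-CSF1R, against 13.2 to 13.3 in the other 10 libraries. J1-3 averaged 14.8 and 13.9 in the same pair of tumors, against 14.2 to 14.3 elsewhere. These 2 tumor libraries, which held the fewest clonotypes, were thus the extremes on both sides for both members. They also held the largest shares of close clonotypes as defined above, and lengths by library without these are not given here.

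As a cluster, Trbj1 gave slightly shorter CDR3s than Trbj2. The means were 13.83 ± 0.0791 and 13.92 ± 0.0310 amino acids (SD, n = 12), and Trbj1 was lower in 12 of 12 libraries, with a mean difference of -0.0892 ± 0.0746 (two-sided exact sign-flip test, p = 0.000488, the smallest it can give). The stretch between base 9 of the CDR3 and the matched J bases, which holds the rest of V, D and the added bases, averaged 13.8 ± 0.370 bases for Trbj1 and 15.1 ± 0.308 for Trbj2 and was shorter for Trbj1 in 12 of 12.

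That stretch also carried the D segment. It was searched, on the coding strand, for any run of 6 bases found in 1 germline D segment and not in the other, overlaps included: GGGACA or GGACAG or GACAGG or ACAGGG or CAGGGG or AGGGGG for Trbd1, and GGGACT or GGACTG or GACTGG or ACTGGG or CTGGGG or TGGGGG or GGGGGG for Trbd2. Letters of Trbd1 were found in 49.3% ± 1.52 of Trbj1 clonotypes and 28.8% ± 0.910 of Trbj2 clonotypes (SD, n = 12), a difference of 20.4 ± 0.827 points. Letters of Trbd2 were found in 7.43% ± 0.580 of Trbj1 clonotypes, from 5.98% to 8.36% by library, and in 42.4% ± 1.05 of Trbj2 clonotypes, a difference of -35.0 ± 1.10 points. Both differences held in 12 of 12 libraries (two-sided exact sign-flip test, p = 0.000488 for each). By member, Trbd1 letters ranged from 45.6% for J1-3 to 53.5% for J1-4 and Trbd2 letters from 5.64% for J1-5 to 8.25% for J1-1, while each Trbj2 segment had at least 31.2% of the latter. A match of this length can arise from added bases, so these are shares of letters, not of D segments used.

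**Figure D3:**
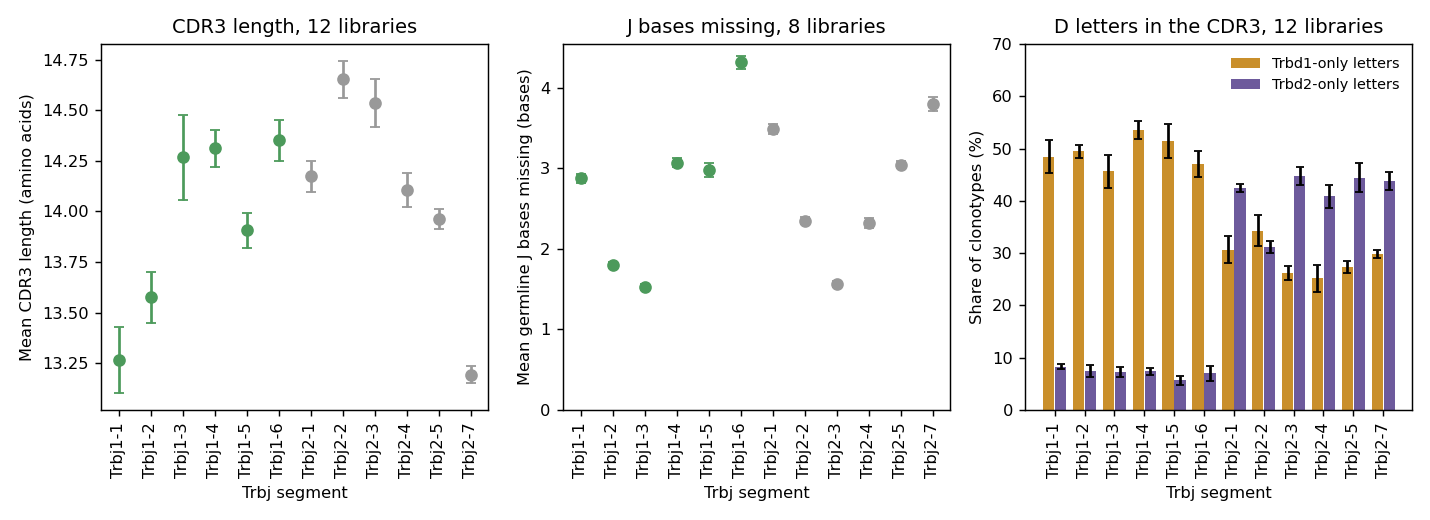
Mean CDR3 length (amino acids, 12 libraries), mean germline J bases missing from the CDR3 (bases, 8 spleen and tdLN libraries) and share of clonotypes with letters of 1 D segment only (%, 12 libraries) by Trbj segment. Points and bars are means over libraries and error bars SD. Trbj1 members are green and Trbj2 segments grey in the first 2 panels. J1-6 lacks the most bases of all segments, and Trbd2 letters are at most 8.25% in every Trbj1 member and at least 31.2% in every Trbj2 segment.

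How often Trbj1 was taken differed between Trbv partners. Of 19 Trbv genes with at least 20 clonotypes in every library, 13 (68.4%) differed from the rest of the same library in the share of clonotypes joined to Trbj1, 6 below it and 7 above it (two-sided exact sign-flip test over 12 libraries, adjusted over the 19 genes). The lowest means were those of Trbv17 (23.8% ± 5.74), Trbv14 (25.8% ± 2.77) and Trbv16 (27.3% ± 1.45), and the highest those of Trbv20 (36.3% ± 1.96), Trbv1 (36.7% ± 1.63) and Trbv26 (40.8% ± 6.96, SD, n = 12 for all). Trbv14 and Trbv16 were below the rest in 12 of 12 libraries (adjusted p = 0.00155 in the exact sign-flip test) and Trbv26 above it in 12 of 12 (adjusted p = 0.00155), with mean differences of -5.95, -4.74 and 9.57 points. Trbv1 and Trbv20 were above it in 11 of 12 (adjusted p = 0.00206 for each in the exact sign-flip test). All 6 lie upstream of the D-J-C units on the plus strand: Trbv1 at chr6:40891296-40891885, Trbv14 at chr6:41135167-41135616, Trbv16 at chr6:41151791-41152230, Trbv17 at chr6:41163092-41163556, Trbv20 at chr6:41188273-41188977 and Trbv26 at chr6:41227525-41227913. Trbv17, nearest in place to Trbv16, was below the rest in 10 of 12 libraries (adjusted p = 0.00371 in the exact sign-flip test).

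Which member was taken differed too. J1-2, high for Trbv12-1, took 10.4% of that gene's clonotypes on average (9.01% to 11.5% over 12 libraries), against 2.84% for Trbv14 (2.05% to 3.23%). J1-1 took 11.4% for Trbv19 (9.93% to 15.6%) and 5.29% for Trbv12-1 (1.77% to 8.58%), so that J1-2 was above J1-1 for the latter. J1-6 took 4.40% for Trbv1 (3.81% to 5.31%), against 0.913% for Trbv3 (0.646% to 1.27%) and 1.05% for Trbv16 (0.563% to 1.43%). Its mean was highest for Trbv26, at 5.25%, but over a range of 2.62% to 21.3%. J1-5 took from 1.18% for Trbv12-1 (0.885% to 1.54%) to 4.04% for Trbv1 (1.77% to 4.78%). These pairings were read from the table of 19 Trbv genes with their values in view and were not tested.

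For Trbv17 the tumor libraries disagreed. It was joined to Trbj1 in 19.9% to 22.6% of its clonotypes in the 8 spleen and tdLN libraries and in 20.1% and 20.3% in the IL-10-Fc and BF10 tumors, but in 35.6% and 36.2% in the control IgG and anti-CSF1R tumors. Once clonotypes 1 base from another of the same V and J with at least 10 times the UMIs were left out, an alternative chosen after the data were seen, these became 23.8% and 25.8%. Such close clonotypes made up 9.46% and 17.4% of Trbj1 clonotypes in these 2 tumors and at most 0.375% in the other 10 libraries. Trbv26 kept 45.5% and 58.5% in the same pair of tumors, from 49.8% and 59.0%. In the 8 spleen and tdLN libraries it spanned 34.5% to 41.7%. That range overlapped those of Trbv1 (35.1% to 39.7%) and Trbv20 (35.1% to 38.9%) in the same libraries.

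**Figure D4:**
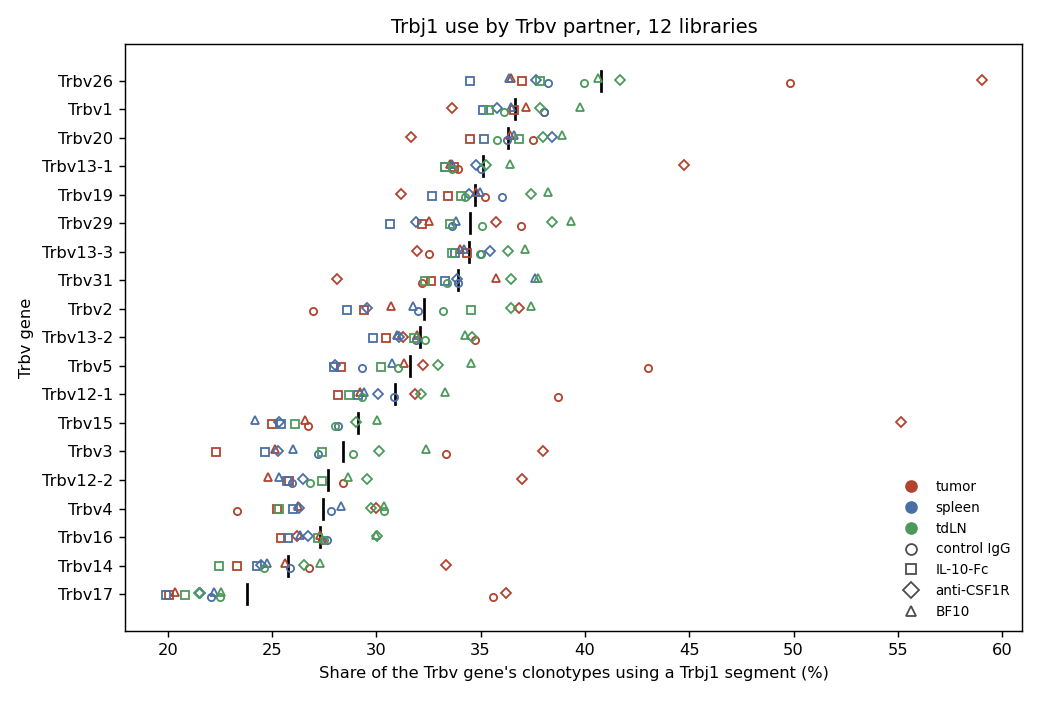
Share of each Trbv gene's clonotypes joined to a Trbj1 segment (%) for 19 Trbv genes in 12 libraries. Colours mark tissue, symbols mark treatment, and black ticks are means over 12 libraries. The genes run from Trbv17 at 23.8% to Trbv26 at 40.8%, and the points far to the right are tumor libraries of control IgG and anti-CSF1R.

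Members differed in how often the same nucleotide clonotype was listed in another library. In spleen the mean share was 20.9% for J1-3, 20.8% for J1-2 and 18.8% for J1-1, then 16.1% for J1-4, 13.4% for J1-6 and 11.2% for J1-5. In tdLN the order was nearly the same, from 19.8% for J1-2 down to 9.71% for J1-5. The spleen libraries of J1-5 (9.93% to 12.0%) did not meet those of J1-2 (20.2% to 21.5%). As a cluster Trbj1 and Trbj2 were close, with 17.9% and 17.5% in spleen under control IgG.

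Expanded tumor clonotypes were taken as those with at least 0.1% of a library's β-chain UMIs. Members supplied 29 of 76 in the control IgG tumor (38.2%, exact 95% interval 27.2% to 50.02%), 7 of 23 under IL-10-Fc (30.4%, 13.2% to 52.9%), 23 of 76 under anti-CSF1R (30.3%, 20.2% to 41.9%) and 1 of 3 under BF10 (33.3%, 0.840% to 90.6%). Every interval held the cluster's share of all clonotypes in its library, which was 33.6%, 29.1%, 34.9% and 30.1%. Of all Trbj1 clonotypes, 0.912%, 0.0438%, 2.65% and 0.00368% were expanded, beside 0.803%, 0.042%, 3.05% and 0.00332% of all β-chain clonotypes. In molecules, expanded members held 26.5%, 1.66%, 23.0% and 0.114% of β-chain UMIs in these tumors. All expanded clonotypes together held 50.2%, 5.11%, 61.5% and 0.448%. Members thus held 52.8%, 32.4%, 37.5% and 25.4% of the UMIs of expanded clonotypes.

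By segment, J1-1 led with 11 of the 29 expanded members under control IgG and 13 of the 23 under anti-CSF1R. It also led among all Trbj1 clonotypes of these tumors, with 1023 of 3181 and 291 of 869. In both tumors several of the expanded J1-1 entries were nucleotide sequences of 1 amino acid clonotype, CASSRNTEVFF, described below. The molecules were less evenly placed. Under control IgG, 3 expanded J1-2 clonotypes held 11.2% of UMIs and 11 expanded J1-1 clonotypes 7.43%, whereas under anti-CSF1R the 13 of J1-1 held 8.72%, 3 of J1-2 6.84% and 2 of J1-3 5.18%.

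The largest member of each tumor library shows what was expanded. Capitals mark the bases that match the germline J segment without a break from the 3′ end.

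Control IgG, Trbv5 with J1-2, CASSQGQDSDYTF: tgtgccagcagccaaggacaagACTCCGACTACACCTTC
IL-10-Fc, Trbv26 with Trbj1-4: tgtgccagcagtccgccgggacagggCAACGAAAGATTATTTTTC
Anti-CSF1R, Trbv15 with J1-3, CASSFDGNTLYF: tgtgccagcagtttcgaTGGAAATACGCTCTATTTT
BF10, Trbv17 with J1-1, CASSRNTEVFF: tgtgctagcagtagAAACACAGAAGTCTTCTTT

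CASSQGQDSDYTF had 11032 UMIs, 10.6% of the control IgG tumor (Wilson 95% interval 10.4% to 10.8%), and was listed besides only in the tdLN of the same treatment, with 56 UMIs. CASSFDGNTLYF had 1636 UMIs, 4.99% of the anti-CSF1R tumor, and was listed in no other library. The top member under IL-10-Fc had 453 UMIs (0.348%) and that under BF10 had 199 (0.114%). The largest expansions were thus in the 2 tumors with the fewest clonotypes.

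Others among the largest in the control IgG tumor were Trbv12-1 with J1-6, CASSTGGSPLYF (1950 UMIs), found in no other library, a Trbv17 and J1-1 sequence of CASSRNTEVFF (1843 UMIs), and Trbv12-1 with J1-1, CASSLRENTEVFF (1211 UMIs). Under IL-10-Fc they were Trbv19 with J1-2, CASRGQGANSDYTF (399), Trbv17 with J1-1, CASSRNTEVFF (384), a Trbv13-1 and J1-6 clonotype (325), and Trbv19 with J1-4, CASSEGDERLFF (210). Under anti-CSF1R they were Trbv13-1 with J1-2 (1152), Trbv16 with J1-2, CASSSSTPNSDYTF (1053), Trbv19 with J1-1, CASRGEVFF (865), and Trbv3 with J1-1, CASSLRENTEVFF (402). The CDR3 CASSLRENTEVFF thus appeared in both tumors with many expansions, with different V segments. Under BF10 they were Trbv29 with J1-4, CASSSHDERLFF (127), Trbv15 with J1-5, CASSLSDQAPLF (124), a Trbv19 and J1-3 clonotype (93), and Trbv2 with J1-5, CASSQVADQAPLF (60). The tdLN of the same treatment listed many of these at lower counts, such as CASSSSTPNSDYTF with 69 UMIs and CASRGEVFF with 22. The J1-3 clonotype of the BF10 tumor, at 0.0531% of β-chain UMIs there, held 0.0495% (101 UMIs) of the BF10 tdLN.

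One amino acid clonotype, Trbv17 with J1-1 and the CDR3 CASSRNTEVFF, was expanded in all 4 tumor libraries and was built from several nucleotide sequences. The 6 shown each reached 0.1% in at least 1 tumor, and differ only in the few bases before the J segment. Capitals again mark the unbroken match to J1-1.

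Sequence 1: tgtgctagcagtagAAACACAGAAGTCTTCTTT
Sequence 2: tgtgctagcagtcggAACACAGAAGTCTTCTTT
Sequence 3: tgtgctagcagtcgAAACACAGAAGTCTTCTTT
Sequence 4: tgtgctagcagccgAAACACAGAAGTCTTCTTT
Sequence 5: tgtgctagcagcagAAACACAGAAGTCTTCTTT
Sequence 6: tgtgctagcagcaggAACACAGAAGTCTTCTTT

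Sequence 1 had 924 UMIs in the control IgG tumor, 384 under IL-10-Fc, 233 under anti-CSF1R and 199 under BF10. Sequence 2 had 1843, 1, 0 and 0 in the same order, and sequence 3 had 568 under control IgG alone. These 3 therefore ranged from shared by every tumor to seen in 1. Sequence 4 had 298 UMIs under control IgG and none in other tumors, sequence 5 had 270, 13, 0 and 5, and sequence 6 had 1, 4, 265 and 0. Each sequence shown keeps the J1-1 letters from AACACAG onward, with 14 or 15 bases before the match.

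Summed over all its nucleotide sequences, this clonotype held 5.51% of β-chain UMIs in the control IgG tumor, 0.356% under IL-10-Fc, 1.99% under anti-CSF1R and 0.145% under BF10. In tdLN it held 0.0562%, 0.0648%, 0.0166% and 0.0196%, and in spleen 0.00130%, 0.00539%, 0.00194% and 0.00200%. Every tumor library was above every tdLN library, and every tdLN library above every spleen library. The spleen values rest on 2, 9, 3 and 3 UMIs. Because the clonotype was picked for its tumor counts, no test of this order is given. Sequence 1 was listed in 11 of the 12 libraries, and whether molecules passed between libraries was not tested.

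**Figure D5:**
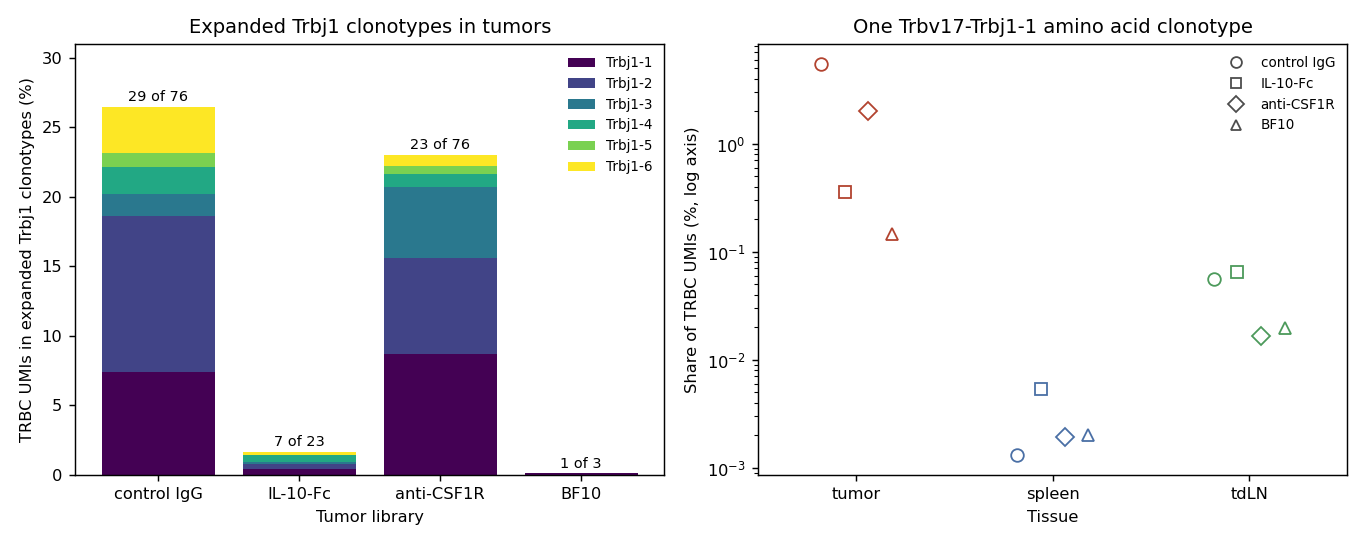
Left, β-chain UMIs held by expanded Trbj1 clonotypes (%) in the 4 tumor libraries, stacked by segment, with the number of expanded members of all expanded clonotypes above each bar. Right, share of β-chain UMIs (%, log axis) of the Trbv17 and J1-1 amino acid clonotype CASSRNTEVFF in the 12 libraries. Members hold 26.5% and 23.0% in the control IgG and anti-CSF1R tumors, where all expanded clonotypes hold 50.2% and 61.5%. The amino acid clonotype is highest in tumor, then tdLN, then spleen.

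The Trbv26 and J1-4 amino acid clonotype that led the IL-10-Fc tumor was expanded in 2 tumors from different nucleotide sequences. They are printed in order of their UMIs over all libraries.

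Sequence 1: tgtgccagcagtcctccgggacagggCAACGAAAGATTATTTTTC
Sequence 2: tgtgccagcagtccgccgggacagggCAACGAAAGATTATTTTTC
Sequence 3: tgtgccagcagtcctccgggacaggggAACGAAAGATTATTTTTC

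Sequences 1 and 3 had 1140 and 376 UMIs in the control IgG tumor and 9 and 1 under IL-10-Fc, while sequence 2 had 453 under IL-10-Fc and none in any other library. None was listed in the anti-CSF1R or BF10 tumor. Counted over all expanded clonotypes, 2 of 48 Trbj1 amino acid clonotypes were expanded in more than 1 tumor, beside 3 of 111 that used Trbj2, a comparison for which no test was made. All 5 were expanded from more than 1 nucleotide sequence.

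Of the 60 expanded Trbj1 entries over the 4 tumors, 29 were listed in the tdLN of the same treatment and 8 in the spleen. By treatment the tdLN counts were 7 of 29 under control IgG, 5 of 7 under IL-10-Fc, 16 of 23 under anti-CSF1R and 1 of 1 under BF10. For Trbj2 the totals were 66 and 23 of 118. Expanded Trbj1 entries were also listed in the tdLN of other treatments. Of the 29 under control IgG, 5, 2 and 4 were listed in the tdLN of IL-10-Fc, anti-CSF1R and BF10. Of the 23 under anti-CSF1R, 3, 3 and 4 were listed in that of control IgG, IL-10-Fc and BF10. Of the 7 under IL-10-Fc, 1 was listed in the tdLN of each other treatment, as was the 1 under BF10. The control IgG tdLN library, with 124488 β-chain UMIs, was the shallowest of the 4 tdLN libraries, and 0 UMIs there allows a share of up to 0.00241%.

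Outside the tumor, no member held more than 0.172% of the β-chain UMIs of its library. The largest in spleen were Trbv29 with J1-1, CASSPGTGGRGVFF (118 UMIs, control IgG), Trbv19 with J1-1, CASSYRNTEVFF (20, IL-10-Fc), Trbv3 with J1-1, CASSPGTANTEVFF (117, anti-CSF1R), and Trbv5 with J1-4, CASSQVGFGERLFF (258, BF10). In tdLN they were Trbv17 with J1-1, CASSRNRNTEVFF (72, control IgG), Trbv2 with J1-5, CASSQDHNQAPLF (128, IL-10-Fc), a Trbv5 and J1-4 clonotype (117, anti-CSF1R), and Trbv29 with J1-4, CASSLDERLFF (212, BF10). Only those of the BF10 spleen, at 0.172%, and the BF10 tdLN, at 0.104%, reached 0.1% of their library. The largest member of the BF10 tumor, at 0.114%, was below the former and near the latter. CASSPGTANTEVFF was also listed in the anti-CSF1R tumor with 89 UMIs, and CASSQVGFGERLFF in the BF10 tdLN with 50.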

How the data were processed

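T cell receptor libraries of CD8+ T cells were made by the authors with the QIAseq Immune Repertoire RNA kit, and reads were grouped by UMI and assigned to clonotypes in its analysis portal. The aligner and germline set were not given in the sources used here. For each clonotype the authors deposited UMI counts at a minimum of 3 reads (used here) and of 7 reads, and the authors' fraction of each clonotype in its library and chain, which equals those counts divided by their sum.

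From these, shares of β-chain UMIs and clonotypes, CDR3 features and Trbv partners were computed per library in Python 3.11.15 with scipy 1.17.1, numpy 2.4.6 and pandas 2.3.3. A library's tissue and treatment came from its labels. Tests were exact permutations of tissue labels within treatment (1296 relabellings), of treatment labels within tissue (13824), and sign flips over 12 libraries (4096), with Benjamini-Hochberg adjustment; they were tested on simulated data. Intervals are 95% Wilson, or exact binomial for expanded clonotypes, and with the limit of 3 UMIs for a count of 0 cover counting error only. Depth was 32784 to 210616 β-chain UMIs. Germline sequences came from RefSeq GRCm38.p6. Named were all 6 segments, the 5 largest members of each tumor library (1 item is not reported here), the largest of each other library, and the 3 Trbv genes with the highest and the 3 with the lowest Trbj1 share. Clonotypes shared between tumors were named after their values were seen. The members and lists were chosen with earlier results of these data known. Alternatives were other minimums of reads and UMIs, amino acid clonotypes, equal UMI totals (32784), no expanded clonotypes, no undetermined residues (726 clonotypes), other expansion thresholds and leaving out a treatment. Chosen after seeing the data were the Trbv standardisation, the removal of close CDR3s, the length of D letters (5 and 7 bases were also tried) and the J trimming over spleen and tdLN.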

Additional observations from a re-analysis of the deposited data

Results flagged for a closer look

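Trbj1-6 held 4.64% of β-chain UMIs in the control IgG tumor, far above the other 3 tumor libraries at 2.43% to 2.56%. In a search of 36 sets of 4 libraries (6 members, 3 tissues, UMI and clonotype shares) this was the only library so far from the others, and chance marks about 1 in 20 such sets. Without clonotypes of at least 0.1% of UMIs, Trbj1-6 held 2.72% there, and the 6 expanded Trbj1-6 clonotypes together held 3.28% of the library's β-chain UMIs. By clonotypes its share was 3.13%.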

How the results depend on the processing

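Of 100 recomputed values that answer a comparison, 88 kept their direction and call. Among clonotype shares between tissues, the members that passed went from 0 to 1 with clonotypes of at least 2 UMIs. They went to 2 with amino acid clonotypes, at equal UMI totals and, chosen after the data were seen, at the same Trbv composition. Among UMI shares they went from 0 to 1 without expanded clonotypes. Of all 12 segments, 3 passed with at least 2 UMIs and 4 in each setting where 2 members did. By UMI share without expanded clonotypes, 3 of all 12 passed. Between treatments, the 1 member that passed by clonotype share fell to 0 with UMIs of at least 7 reads, with clonotypes of at least 2 UMIs and at equal UMI totals, and ranged from 0 to 0 when a treatment was left out, where 3 treatments cannot give an unadjusted p below 0.0278 and no segment can readily pass. The tdLN minus spleen difference of Trbj1-5 turned with clonotypes of at least 2 UMIs, to -0.0494 points of UMIs and -0.0500 of clonotypes. That of Trbj1-1 ranged from -0.00920 to 0.472 points of UMIs and from -0.0416 to 0.486 of clonotypes when a treatment was left out, turning without BF10; the cause was not tested. Trbv genes called ranged from 12 to 16 when a treatment was left out, against 13. The Trbj1 share of expanded clonotypes stayed within its interval at thresholds of 0.05% and 0.5%, except that the IL-10-Fc and BF10 tumors held no clonotype of 0.5%. Tissues were compared within treatment; the labels give no replicate numbers, so no replicate block was fitted. Among tumor libraries the anti-CSF1R one, with 32784 UMIs, had the widest counting intervals for the cluster's shares.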
